A study of Mus musculus with 3 samples.

Results

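Prostaglandins and leukotrienes are made from arachidonic acid by a short chain of enzymes. Followed here were 10 genes of that chain or linked to it: Pla2g4a, Pla2g7, Ptgs1, Ptgs2, Ptges, Hpgds, Alox5, Alox5ap, Lta4h and Ltc4s. They were taken by name as genes of a pathway, with earlier results of these data known. All 10 were found among the 55536 Ensembl genes measured, of which 22028 were protein-coding. The RNA was the cytosolic RNA of primary macrophages grown from C57BL/6J bone marrow, taken 10 minutes after 100 ng/ml Lipid A, the part of bacterial lipopolysaccharide that TLR4 binds. Total RNA was depleted of ribosomal RNA and sequenced in 3 biological replicates, which form the only group. There were no untreated cells and no later time, so all values are levels at that moment and none is an induction. The labels give 1 donor identifier for all 3 libraries and do not record age or sex, so the p-values measure only the spread between these samples, which may be partly technical. Gene counts totalled 33825547, 54667365 and 43176007 in replicates 1, 2 and 3.

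As background, phospholipase A2 enzymes free arachidonic acid from membranes. The cyclooxygenases turn it into prostaglandin H2, which terminal synthases convert into single prostaglandins. In the other branch, 5-lipoxygenase, helped by its membrane partner FLAP, makes leukotriene A4, which becomes either the neutrophil attractant leukotriene B4 or the cysteinyl leukotriene C4. Macrophages are known as a source of both kinds of lipid, and Ptgs2 is a textbook gene induced by lipopolysaccharide over hours.

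The RNA for this pathway was very uneven. Alox5ap, which encodes FLAP, and Hpgds, the hematopoietic prostaglandin D2 synthase, together made up 82.9% ± 1.40 (SD, n = 3) of the summed TPM of the 10 genes. TPM is a share of all transcripts after allowing for length, so genes can be compared with each other. The 10 genes summed to 208, 204 and 223 TPM in replicates 1, 2 and 3. Alox5, the lipoxygenase that FLAP serves, was the lowest of all, and Ptgs2 and Ptges, the inducible cyclooxygenase and prostaglandin E synthase, were also below 1 TPM. Of the 10 genes, 7 reached 1 TPM in every library and the other 3 stayed below it in every library. The same threshold was reached in every library by 41.6% of protein-coding genes and 17.3% of all genes. Protein-coding genes held only 23.6%, 23.5% and 25.6% of all TPM in replicates 1, 2 and 3. With TPM rescaled over those genes, the same 7 genes reached 1 TPM in every library. On that scale Ptgs2 was at 0.635, 0.977 and 0.859, and Ptges at 0.423, 0.935 and 1.17.

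**Figure D1:**
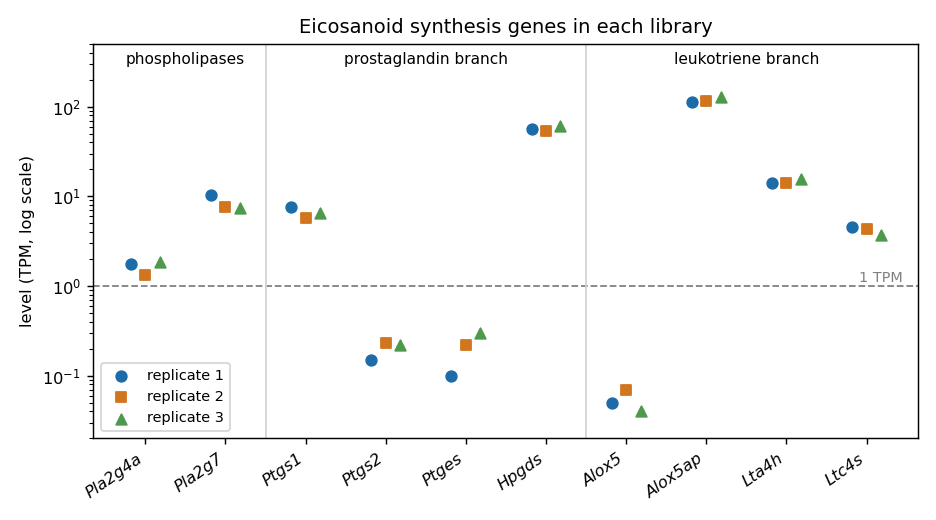
Level of each of the 10 genes in TPM (log axis) in each library, with genes grouped by their place in the pathway and a dashed line at 1 TPM. Alox5ap and Hpgds stand highest, Ptgs2, Ptges and Alox5 lie below the line in all 3 libraries.

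Because the cyclooxygenase isozymes stood so far apart, and Hpgds and Alox5 even farther, the sequences around their start sites are shown. Each is a window of 250 bases before and 50 after a start site, from RefSeq on GRCm38.p6, written along the gene's own strand. Capitals mark matches on either strand to a TATA box (TATAAA), a GC box (GGGCGG), the core of a cyclic AMP response element (TGACG) or the core of a PU.1 site (GAGGAA). They also mark the C/EBP motif (TTGC, any 2 bases, then AA) and the NF-kB motif. The latter was searched as GGG, A or G, any base, A or T, 2 bases that are C or T, then CC.
Ptgs1 (chr2:36230176-36230475, plus strand): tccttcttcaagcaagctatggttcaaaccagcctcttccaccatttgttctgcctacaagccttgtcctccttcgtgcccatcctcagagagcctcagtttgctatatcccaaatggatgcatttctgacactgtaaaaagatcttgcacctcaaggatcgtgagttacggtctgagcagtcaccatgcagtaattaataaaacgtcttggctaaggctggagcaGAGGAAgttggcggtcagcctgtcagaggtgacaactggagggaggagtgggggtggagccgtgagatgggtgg
Ptgs2 (chr1:150099781-150100080, plus strand): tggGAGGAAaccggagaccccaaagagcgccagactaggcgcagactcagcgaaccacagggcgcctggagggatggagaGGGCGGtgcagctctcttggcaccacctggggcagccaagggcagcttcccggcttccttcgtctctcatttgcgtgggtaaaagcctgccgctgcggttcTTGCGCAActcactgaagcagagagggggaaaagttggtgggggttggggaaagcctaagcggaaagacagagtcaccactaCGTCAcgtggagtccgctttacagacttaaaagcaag
Hpgds (chr6:65144681-65144980, minus strand): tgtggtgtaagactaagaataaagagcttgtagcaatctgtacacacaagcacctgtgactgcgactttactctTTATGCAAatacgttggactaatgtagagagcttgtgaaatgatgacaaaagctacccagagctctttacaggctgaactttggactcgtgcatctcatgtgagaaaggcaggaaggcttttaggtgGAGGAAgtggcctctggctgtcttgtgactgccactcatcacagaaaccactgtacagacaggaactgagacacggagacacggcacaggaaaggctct
Alox5 (chr6:116461129-116461428, minus strand): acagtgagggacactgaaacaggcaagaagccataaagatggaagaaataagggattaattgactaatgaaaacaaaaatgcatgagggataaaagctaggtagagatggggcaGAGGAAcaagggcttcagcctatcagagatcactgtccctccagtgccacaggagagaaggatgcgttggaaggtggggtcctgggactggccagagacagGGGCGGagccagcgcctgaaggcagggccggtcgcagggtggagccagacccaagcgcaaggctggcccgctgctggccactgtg

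Such windows were found for 9 of the 10 genes, and Alox5ap had no entry. GAGGAA, named for PU.1, a factor that macrophages need, matched in 7 of the 9 genes, against 28.3% of all 32851 windows. In Ptgs1 it began at base -24 from the start, in Hpgds at -49, in Alox5 at -136 and in Ptgs2 at -247. The C/EBP motif matched in 2 of 9 genes, at base -69 in Ptgs2 and at -176 on the opposite strand in Hpgds, against 10.8% of windows. The start used for Hpgds lies inside the Ensembl bounds of the gene given below. Both Hpgds matches therefore fall within those bounds and not before them. Ptgs2 was the only one of the 9 with TGACG, read on the opposite strand from base 14 after the start (20.8% of windows). GGGCGG matched in 4 of 9 genes (35.7% of windows). TATAAA and the NF-kB motif (13.6% and 4.51% of windows) matched in none of the 9, counting the first window listed for each gene. Pla2g4a has a second window, and that one held TATAAA. Bases outside the windows were not searched, so a motif without a match here may still lie farther from the start. These motifs do not overlap in the windows shown, and a match is a match of letters, which the expression tables do not test for binding. Whether any of these motifs goes with the level of a gene was not tested.

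Phospholipases came first. Pla2g4a (ENSMUSG00000056220.14, mm10, the same assembly as GRCm38, chromosome 1, 149829618 to 149961290, minus strand) encodes the cytosolic phospholipase A2 that prefers arachidonate. It was at 1.77, 1.34 and 1.84 TPM in replicates 1, 2 and 3, from 308, 362 and 368 estimated reads. Pla2g7 (ENSMUSG00000023913.17, chromosome 17, 43568098 to 43612201) encodes the secreted enzyme that inactivates platelet-activating factor. It was at 10.4, 7.55 and 7.47 TPM, highest in replicate 1, and lay above Pla2g4a in each library. On the log2 scale with 0.1 TPM added to both, Pla2g4a was below Pla2g7 by a difference of -2.29 ± 0.28 (SD, n = 3), with the same sign in each of the 3 libraries (exact permutation of signs, two-sided p = 0.25). That is the smallest p that 3 libraries allow, adjusted or not over the 5 pairs of genes compared, so none of the pair tests below could pass 0.05.

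In the prostaglandin branch, the constitutive cyclooxygenase led the inducible one. Ptgs1 (ENSMUSG00000047250.13, chromosome 2, 36230426 to 36252272) was at 7.67, 5.72 and 6.55 TPM, with 1278, 1385 and 1245 reads. Ptgs2 (ENSMUSG00000032487.8, chromosome 1, 150100031 to 150108227) was at 0.15, 0.23 and 0.22 TPM, with 42, 101 and 72 reads, so it had reads in each library although it was below 1 TPM. Their ranges did not come near each other, and Ptgs1 exceeded Ptgs2 by 51.1, 24.9 and 29.8 times in replicates 1, 2 and 3. The log2 difference was 4.49 ± 0.42 (SD, n = 3; exact sign-flip permutation p = 0.25). Its size depends on the 0.1 TPM added to both: it was 4.999 with 0.01 added and 2.665 with 1 added. Ptgs1 ranked 5006 and Ptgs2 10877 among protein-coding genes by mean TPM.

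The terminal synthases differed more. Hpgds (ENSMUSG00000029919.5, chromosome 6, 65117293 to 65144908) was at 55.7, 53.8 and 60.1 TPM and ranked 647 among protein-coding genes. Ptges (ENSMUSG00000050737.13, chromosome 2, 30889471 to 30929863), the inducible microsomal prostaglandin E synthase, was at 0.10, 0.22 and 0.30 TPM, with 13, 45 and 30 reads. It was lowest in replicate 1. The exact 95% Poisson intervals of these reads, before depth is allowed for, ran from 6.92 to 22.2, from 32.8 to 60.2 and from 20.2 to 42.8. The log2 difference of Ptges from Hpgds was -7.59 ± 0.48 (SD, n = 3; exact sign-flip permutation p = 0.25), with the same sign in 3 of 3 libraries. With 0.01 added in place of 0.1 it was -8.15, and with 1 added -5.58.

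In the leukotriene branch, the partner protein and the enzyme stood at opposite ends. Alox5ap (ENSMUSG00000060063.9, chromosome 5, 149264767 to 149288153) was at 114, 117 and 127 TPM, rank 299 among protein-coding genes. Alox5 (ENSMUSG00000025701.12, chromosome 6, 116410077 to 116461178) was at 0.05, 0.07 and 0.04 TPM, from 7, 17 and 8 reads. Exact 95% Poisson intervals, which cover counting error only, ran from 2.81 to 14.4, from 9.90 to 27.2 and from 3.45 to 15.8 reads. All 3 libraries placed Alox5 below each of the other 9 genes. The log2 difference of Alox5ap from Alox5 was 9.61 ± 0.20 (SD, n = 3; exact sign-flip permutation p = 0.25). Because Alox5 lies near the 0.1 TPM added, this size depends on that choice: it was 10.9 with 0.01 added and 6.84 with 1 added.

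Lta4h and Ltc4s, the genes among the 10 whose enzymes use leukotriene A4, were both above 1 TPM. Lta4h (ENSMUSG00000015889.8, chromosome 10, 93453411 to 93484875), the hydrolase that makes leukotriene B4, was at 14.2, 14.2 and 15.8 TPM. Ltc4s (ENSMUSG00000020377.15, chromosome 11, 50236461 to 50238616, minus strand), the synthase that joins leukotriene A4 to glutathione, was at 4.49, 4.35 and 3.66 TPM. Lta4h exceeded Ltc4s by 3.17, 3.26 and 4.30 times, a log2 difference of 1.80 ± 0.24 (SD, n = 3; exact sign-flip permutation p = 0.25). Ltc4s overlaps the antisense gene Gm26542 on the plus strand, which had 11, 15 and 11 reads against 116, 187 and 118 for Ltc4s. In the read-based table Gm26542 had 64, 55 and 35 reads and Ltc4s had 132, 194 and 132. The labels do not say that strand was used in counting, so reads of this overlap cannot be told apart by strand.

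From the highest to the lowest mean the order was Alox5ap, Hpgds, Lta4h, Pla2g7, Ptgs1, Ltc4s, Pla2g4a, Ptges, Ptgs2 and Alox5. Of the 9 neighbouring pairs in that order, 7 had ranges over the libraries that did not overlap. In the second transcript table, whose TPM is set on a different scale in each library, 3 did not overlap, and 7 once it was rescaled to protein-coding genes. The exceptions were Pla2g7 and Ptgs1, which overlapped in range but kept their order in each library, and Ptges and Ptgs2, whose means were 0.207 and 0.20 TPM and which kept that order in 1 of 3 libraries. The median level of the 9164 protein-coding genes at 1 TPM or more in every library was 7.60 TPM, so Pla2g7 lay near it, Ptgs1 just below it, and Alox5ap far above.

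The libraries were then compared gene by gene. Counts of 3 of the 10 genes differed between libraries beyond counting error (chi-square test of estimated counts against TMM-scaled library sizes, Benjamini-Hochberg adjusted over 13494 genes). Among all genes tested 50.1% differed, as did 50.4% of protein-coding genes and 55.7% of genes with at least 500 counts in all, so the share of 3 in 10 was below that of all genes. The common coefficient of variation in edgeR was 14.4%. Without replicate 1, the same number of the 10 genes differed, 3 of 9 that could be tested, against 27.5% of all genes. With library totals in place of TMM scaling 6 of the 10 genes differed, against 51.9% of all.

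The genes that differed were Ptgs1, Pla2g7 and Pla2g4a, and each had its highest normalised count in replicate 1. Of all genes called, 31.5% were highest in replicate 1, 29.1% in replicate 2 and 39.4% in replicate 3. In TMM-scaled CPM, a count scaled to library size, Pla2g7 was at 34.7, 26.7 and 23.7, a 1.47-fold range (chi-square test with edgeR's TMM scaling, adjusted p = 5.5e-19). Ptgs1 was at 36.3, 26.2 and 29 on the same scale, a 1.39-fold range (adjusted p = 8.67e-16, same test). Pla2g4a was at 8.76, 6.85 and 8.57, a 1.28-fold range (adjusted p = 0.00407, same test), with replicate 2 apart from the others. Without replicate 2, the adjusted p of Pla2g4a was 0.849. In replicate 1 the summed level of 7 nuclear long noncoding RNAs, Malat1 and Neat1 among them, was also highest, at 657 TPM against 443 and 356. Most of that sum was Malat1, at 597, 383 and 304 TPM. Neat1 was at 41.7, 41.6 and 33.7 TPM and Tug1 at 18.2, 18.0 and 18.0. In normalised counts, the 4 of this list that could be tested all differed and were highest in replicate 1. The summed level of 10 cell division genes was highest in replicate 3, at 63.3 TPM against 19.6 and 20.1. The part of either in these differences was not tested.

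In TMM-scaled CPM the leading genes of both branches had the smallest ranges of the 10, 1.02-fold for Hpgds and 1.03-fold for Alox5ap. In TPM the smallest was that of Lta4h, 1.11-fold, against 1.12-fold for both. Hpgds was at 295, 291 and 290 TMM-scaled CPM (adjusted p = 0.570, chi-square test with edgeR's TMM scaling) and Alox5ap at 149, 147 and 145 (adjusted p = 0.356). With library totals in place of TMM scaling both passed the threshold, at adjusted p of 7.99e-10 and 7.79e-06 in the same test. Both had their highest TPM in replicate 3, where protein-coding genes held 25.6% of all TPM against 23.6% and 23.5% in replicates 1 and 2. Lta4h ranged 1.09-fold (adjusted p = 0.0521), and passed the threshold with library totals (0.0440), without replicate 2 (0.0236) and in the second transcript table (0.000195). Hpgds passed in that table as well (0.00801). Ltc4s ranged 1.29-fold (adjusted p = 0.154). Ptgs2 (1.60-fold, adjusted p = 0.0679) and Ptges (2.30-fold, adjusted p = 0.0502) were lowest in replicate 1 and passed the threshold when replicate 3 was left out, with adjusted p of 0.0298 and 0.0208. That made 5 called genes in place of 3, where 36.1% of all genes were called. Alox5 ranged 1.73-fold with an adjusted p of 0.428. A range of 1.5-fold or more was seen in these 3 low genes and in 19.9% of all genes tested.

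**Figure D2:**
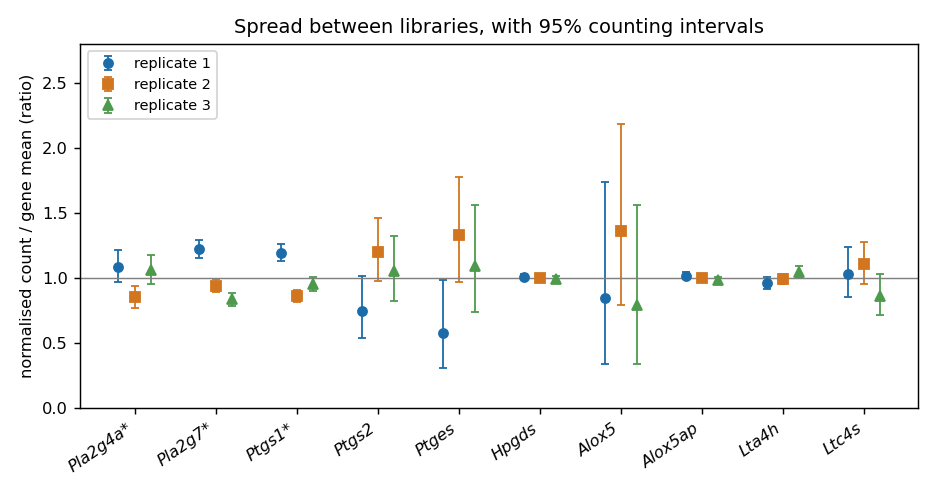
TMM-normalised count of each gene in each library, divided by the mean of its 3 libraries, with exact 95% Poisson intervals of the counts as bars, and an asterisk for an adjusted p under 0.05. Hpgds and Alox5ap lie on the line at 1 with narrow bars, replicate 1 stands above the others for Pla2g7 and Ptgs1, and the bars of Alox5, Ptges and Ptgs2 are wide.

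The next question was which annotated transcripts the reads were assigned to. The 10 genes have 53 annotated transcripts, of which 23 are protein-coding and 15 are labelled retained intron. In all 10 genes the transcript with the largest mean TPM in the alignment-based table was protein-coding, though for Ptges this depended on the library and the table. Its share was 99.0% ± 1.15 (SD, n = 3) for Pla2g4a-201, 93.7% ± 1.59 for Pla2g7-201, 92.1% ± 3.90 for Ptgs1-201, 89.4% ± 3.22 for Lta4h-201 and 83.9% ± 3.97 for Ltc4s-202. All reads of Ptgs2 were assigned to the full-length Ptgs2-201 in the alignment-based table.

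Alox5ap and Hpgds were less uniform. For Alox5ap, the 1251-base coding transcript Alox5ap-201 held 59.3%, 49.5% and 49.9% of the gene's TPM in replicates 1, 2 and 3. The 504-base Alox5ap-204, which is annotated as a processed transcript without a coding sequence, held 32.4%, 36.3% and 38.0%. In reads rather than TPM, Alox5ap-204 held 14.7% ± 2.51 (SD, n = 3), since TPM weights short transcripts up. In the second, read-based quantification its TPM share was 26.1% ± 0.871.

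For Hpgds, 19.2% ± 1.04 (SD, n = 3) of the TPM lay in both retained intron transcripts together, and 38.8% ± 4.05 in the second quantification. Most of that was the 420-base Hpgds-202, at 15.8% ± 1.17 of the TPM but 1.08% ± 0.151 of the reads. In the second quantification Hpgds-202 held 35.8% ± 2.90 of the TPM. The 3891-base Hpgds-203 had 731, 592 and 315 reads in replicates 1, 2 and 3, or 7.05%, 3.85% and 2.53% of the gene's reads. It was highest in replicate 1 and lowest in replicate 3, the same order as the summed nuclear noncoding RNAs above, most of which was Malat1. For Hpgds-203 the second quantification gave 7.94%, 4.37% and 3.05%. The relation between these measures was not tested.

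**Figure D3:**
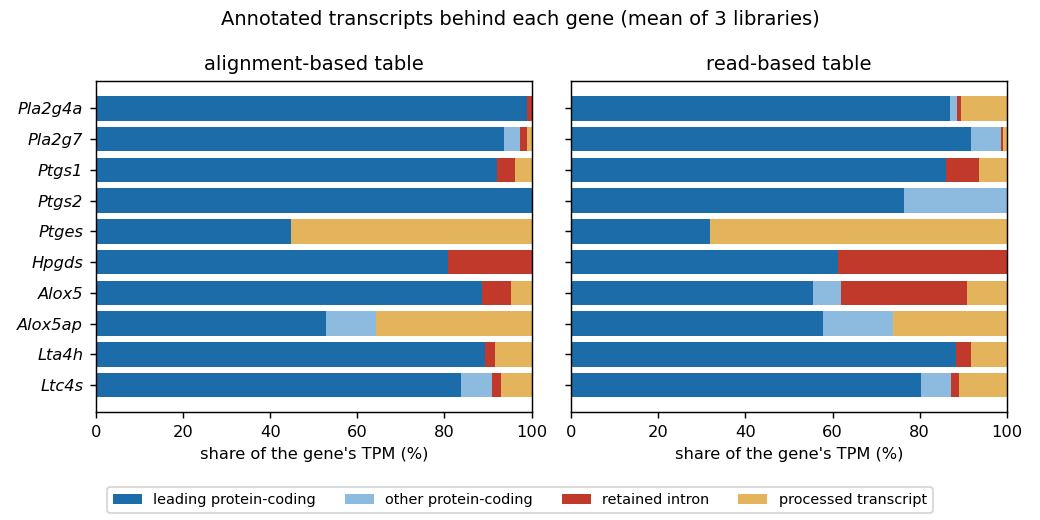
Share of each gene's TPM (percent, mean of 3 libraries) in its leading protein-coding transcript, other protein-coding transcripts, retained intron transcripts and processed transcripts, from the alignment-based table on the left and the read-based table on the right. Alox5ap and Ptges have large processed transcript shares and Hpgds the largest retained intron share on the left (19.2%), while the low genes Alox5 and Ptgs2 change with the table.

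The low genes rest on so few reads that their transcript shares are uncertain. Ptges-202, the only coding transcript annotated for Ptges, held 50%, 54.5% and 30% of the TPM but 87.4% ± 8.97 (SD, n = 3) of the reads. It tied with the noncoding Ptges-204 in replicate 1, and in replicate 3 the noncoding Ptges-201 held more, at 50% of the TPM. In the read-based table Ptges-204 led with a mean of 56.9% against 31.8% for Ptges-202. The Ptges locus also spans the processed pseudogene Gm13400, which had no count.

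Messenger RNA stability was not measured, and only a sequence feature linked to it was counted. AU-rich elements built from the pentamer ATTTA are known to bind proteins that shorten the life of many inflammatory messages. In the 3' UTR of the leading coding transcript, Ptgs2 had 14 such pentamers in 2445 bases, a number reached by 1.96% of the 19715 genes measured, and 5.73 per kilobase, a density reached by 5.86%. The median gene had 1. The densest stretch of 30 bases, which begins at base 12 of the Ptgs2 3' UTR, is shown with the pentamers in capitals.
Ptgs2 (GRCm38, chr1:150105794-150105823, plus strand): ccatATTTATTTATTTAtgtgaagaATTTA
It holds 4 of the pentamers. Pla2g4a had 4 in 443 bases, a number that 22.1% of genes reached, or 9.03 per kilobase, a density that 2.03% reached. Alox5ap, Alox5 and Hpgds had 2 each, and Pla2g7 had 1. Per kilobase these were 4.77 for Alox5ap, 3.12 for Alox5, 0.760 for Hpgds and 4.50 for Pla2g7, densities reached by 8.83%, 19.6%, 54.6% and 10.0% of genes. Ptgs1, Ptges, Lta4h and Ltc4s had none. The cyclooxygenase isozymes Ptgs1 and Ptgs2 thus differed in this feature. The 3' UTR of Ptges measured 3106 bases. Whether the number of pentamers goes with the level of a gene was not tested.

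Position in the genome was shared by Pla2g4a and Ptgs2. Both lie on chromosome 1 in opposite orientation, 138740 bases apart, with no protein-coding gene between them. The noncoding gene Ptgs2os lies on the other strand, 67 bases from the start of Ptgs2. It had 0, 1 and 0 reads in the alignment-based table and 7, 19 and 10 in the read-based one.

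The wider pathway was described by 6 lists with 88 gene entries, and 43 of these reached 1 TPM in every library. That is 48.9%, against 41.6% of protein-coding genes. Counts of 30 of the 53 entries tested differed between libraries, or 56.6%, against 50.1% of all genes.

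Among 34 genes of phospholipid and arachidonate handling, 17 reached 1 TPM in every library. The lysosomal phospholipase Pla2g15 was at 60.4 ± 6.09 TPM (SD, n = 3) and the lipid hydrolase Abhd12 at 123 ± 8.56 TPM. Pafah1b1, a subunit of an intracellular platelet-activating factor hydrolase, was at 23.9 ± 0.827 TPM, and Daglb, a diacylglycerol lipase, at 16.4 ± 2.01 TPM. Of the phospholipases other than the cytosolic one, Pnpla8 was at 15.7 ± 2.18 TPM and Pla2g12a at 2.95 ± 0.578 TPM, both above Pla2g4a. Pla2g6 was at 1.31 ± 0.111 TPM, close to Pla2g4a. In the list, 9 genes had no count, among them the secreted Pla2g2d and Pla2g10. A count of 0 allows up to 3 reads in a library.

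The prostanoid synthases outside the 10 genes were mostly present. Of 10 measured, 7 reached 1 TPM in every library. Tbxas1, the thromboxane synthase, was at 30.2, 27.5 and 33.3 TPM, which is below Hpgds in each library. Akr1b3, an aldose reductase that can make prostaglandin F2alpha, was at 33.7 ± 1.55 TPM (SD, n = 3). Fam213b, a prostamide and prostaglandin F synthase, was at 22.8 ± 2.24 TPM. Prostaglandin E synthesis outside Ptges was represented by Ptges3, at 27.9 ± 2.09 TPM, which is also the cochaperone p23, and Ptges2, at 2.27 ± 0.185 TPM. Both exceeded Ptges in all 3 libraries. The prostacyclin synthase Ptgis had no count, and Ptgds, the other prostaglandin D2 synthase, had 1, 1 and 0 reads.

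Prostanoid receptors were low. Of 9 genes, 3 reached 1 TPM in every library. The prostaglandin E2 receptor genes Ptger4 and Ptger2, which couple to cyclic AMP, were at 2.15 ± 0.448 TPM and 0.80 ± 0.0346 TPM (SD, n = 3). Ptger1 was at 1.94 ± 0.0557 TPM and the prostacyclin receptor Ptgir at 1.24 ± 0.0755 TPM. The prostaglandin D2 receptors, which would sense the product of Hpgds, were at or near 0: Ptgdr had no count and Ptgdr2 had 0, 4 and 0 reads. For breakdown and transport, 4 of 6 genes reached 1 TPM in every library. The reductases Ptgr2 and Ptgr1 were at 12.4 ± 1.03 TPM and 5.59 ± 0.414 TPM, Cbr3 at 4.26 ± 0.415 TPM and the exporter Abcc4 at 2.62 ± 0.150 TPM. Hpgd, the dehydrogenase that starts prostaglandin inactivation, was at 0.49, 0.21 and 0.25 TPM, highest in replicate 1 (adjusted p = 0.000809, chi-square test with edgeR's TMM scaling).

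For leukotriene and lipoxin metabolism, 8 of 20 entries reached 1 TPM in every library. Cotl1, a small actin-binding protein that also binds 5-lipoxygenase, was at 179 ± 13.1 TPM (SD, n = 3), and the lipid peroxide reductase Gpx4 at 128 ± 3.10 TPM. Cotl1 was above Alox5ap in each library, and Alox5 was at 0.0533 ± 0.0153 TPM. Reads of other lipoxygenases were few: Alox12 had 5, 15 and 4 reads, Alox15 had 0, 0 and 3, and Alox12b and Alox12e had none. Ltc4s, Alox5ap and Ptges belong to the same family of small membrane proteins, called MAPEG, as the microsomal glutathione transferases. In that family Mgst1 was at 75.8 ± 6.18 TPM, between Alox5ap and Hpgds, Mgst3 at 7.60 ± 0.677 TPM and Mgst2 at 1.04 ± 0.0851 TPM. The family thus ran from Alox5ap at 119 ± 7.10 TPM down to Ptges at 0.207 ± 0.101 TPM. Dpep2, a dipeptidase that converts leukotriene D4, was at 19.9 ± 2.09 TPM.

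Of 9 receptors for leukotrienes, platelet-activating factor and lipoxins, 4 reached 1 TPM in every library. Ptafr, the receptor for platelet-activating factor, was at 90.7, 93.0 and 95.5 TPM, and Cmklr1, a receptor for chemerin, was at 16.4 ± 1.61 TPM (SD, n = 3). The cysteinyl leukotriene receptors Cysltr1 and Cysltr2 were at 3.54 ± 0.386 TPM and 1.42 ± 0.161 TPM. The leukotriene B4 receptor Ltb4r1 was at 0.16 TPM in each library, from 12, 19 and 14 reads.

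**Figure D4:**
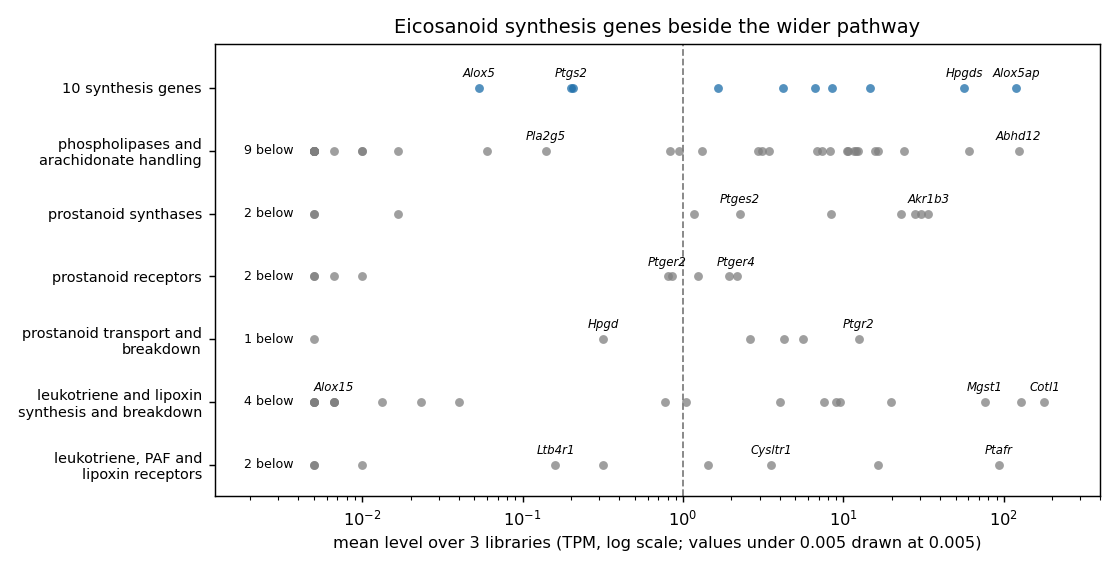
Mean TPM over 3 libraries (log axis, values under 0.005 drawn at 0.005, their number printed beside them) of the 10 synthesis genes in blue and of 6 lists of related genes in grey, with a dashed line at 1 TPM. Alox5ap (119 TPM) lies near Abhd12 (123 TPM), Hpgds (56.5 TPM) lies lower, and the highest of the prostanoid receptors is Ptger4 at 2.15 TPM.

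Some of the 10 genes are also known from other blood cells, so markers of those cells are given. The macrophage label was borne out by all 10 macrophage markers at 1 TPM or more in every library, led by Lyz2 at 4969.7 ± 427 TPM (SD, n = 3). Mast cells make much Hpgds, Ltc4s and Alox5. None of 11 mast cell and basophil markers reached 1 TPM in every library, their sum was 0.780, 0.930 and 0.910 TPM, and the tryptase genes Tpsab1 and Tpsb2 and the chymase gene Mcpt4 had no count. The highest of them, Kit, was at 0.507 ± 0.0681 TPM. Platelets make much Ptgs1 and Tbxas1. Of 10 platelet and megakaryocyte markers, Pf4 (193 ± 43.3 TPM), a chemokine, and Vwf (12.8 ± 1.11 TPM) reached 1 TPM in every library, and the sum was 188, 175 and 258 TPM, while the platelet glycoprotein genes Gp9, Gp5, Gp1bb and Gp6 were each at 0.07 TPM or less in every library. Most of the sum was Pf4, at 174, 163 and 243 TPM in replicates 1, 2 and 3, so the sum followed Pf4 over the libraries. Ptgs1 was highest in replicate 1, and the part of platelets in its level was not tested. Neutrophils express Alox5 and Alox5ap. Of 11 neutrophil markers, 5 reached 1 TPM in every library, S100a9 was highest at 17.6 ± 4.01 TPM, and the sum was 45.05, 57.9 and 59.4 TPM, lowest in replicate 1. The others were lower: Ltf had a mean of 0.583 TPM, Mpo 0.213, Camp 0.203, Elane 0.19 and Cxcr2 0.05, and Ly6g had no count. The part of such cells in the level of Alox5ap was not tested. Eosinophil markers summed to 0.95, 1.04 and 1.29 TPM, led by Ccr3 at 0.823 ± 0.258 TPM. In bulk RNA, fewer cells of a type and less RNA per cell cannot be told apart.

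Markers of other lineages were low. Dendritic cell markers summed to 2.67, 3.31 and 3.03 TPM, of which only Batf3 reached 1 TPM in every library, T and B cell markers to 0.17, 0.40 and 0.23 TPM and stromal markers to 0.12, 0.07 and 0.08 TPM.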

How the data were processed

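The 10 genes and all gene lists were chosen with earlier results of these data known. Per the file headers, the authors deposited for each of the 3 libraries a gene table and a transcript table with estimated counts (expected counts) and TPM, and a second transcript table with estimated counts and TPM quantified from reads. Per the file headers and the notes beside them, the first set was quantified from transcriptome alignments, with annotation M21 on mm10. Aligner and quantifier: not given in the sources used here. Entries without an Ensembl gene took 0.449%, 0.203% and 0.141% of counts and were left out. Expected counts were rounded, scaled by TMM (edgeR 4.0.16 in R 4.3.3) and tested for a difference between libraries by chi-square. Genes needed at least 30 counts over the 3 libraries, and p-values were adjusted by Benjamini-Hochberg, with 0.05 as threshold. Pairs of genes were compared by exact permutation of signs (sign-flip, two-sided). A gene was called detected at 1 TPM in every library. DESeq2 1.42.0 size factors were an alternative. Tables were handled with pandas 2.3.3 and numpy 2.4.6 in Python 3.11.15, tests with scipy 1.17.1 and figures with matplotlib 3.10.9. All 10 genes were named, with the 4 highest of each pathway list and genes fixed by role. Pla2g6, Pla2g2d, Pla2g10, Ptges2, Ptgdr, Ptgdr2, Alox12, Alox12b, Alox12e, Gp9, Gp5, Gp1bb and Gp6 were named after their values were seen. One symbol, Prxl2b, had no match, being the gene listed as Fam213b, and Dpep2 had 2 entries. A comparison of protein sequences was not made.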

Additional observations from a re-analysis of the deposited data

How the results depend on the processing

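No paired analysis was possible because there is only 1 group. Of the 9 neighbouring pairs in the order of the 10 genes, 7 had ranges that did not overlap, against 3 in the second transcript table and 7 once that table was also rescaled to protein-coding genes, a setting chosen after seeing the data. Leaving out each replicate in turn gave 7 to 8. In the second table protein-coding genes held 17.2%, 8.95% and 8.11% of TPM in replicates 1, 2 and 3. At 1 TPM or more in every library were 7 of the 10 genes, 6 in the second table and 5 at a threshold of 5 TPM. Rescaled to protein-coding genes, the number was 7 with either quantification. In the second one so rescaled, Ptgs2 was at 2.62, 1.04 and 0.988 TPM in replicates 1, 2 and 3, and Ptges at 0.658, 1.24 and 1.98. The Ptgs2 value of replicate 1 rests mostly on the 358-base Ptgs2-202, with 70.5% of the gene's TPM there from 3.82 estimated reads. Reads of Ptgs2 in that quantification were 61, 117 and 87, lowest in replicate 1. The number of the 10 genes whose counts differed between libraries was 3, and became 6 with library totals (Alox5ap, Hpgds and Lta4h added; 51.9% of all genes) and 6 with the second table (Lta4h, Hpgds and Ptges added; 58.9% of all genes). Leaving out each replicate in turn gave 3 to 5, and 3514 to 5358 of all genes against 6765, with fewer samples in the test. The lowest, 3514, was without replicate 1. All 5 pair differences kept their direction under the alternatives run. Alox5 had too few counts to be tested once a replicate was left out, and depth limits Ptges and Ptgs2 as well.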
